A study of Sus scrofa with 10 samples.

Results

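The genes described here handle fatty acids: 3 fatty acid binding proteins (FABP4, FABP3 and FABP5), the lipase LPL, the uptake receptor CD36, the nuclear receptor PPARG, the lipid droplet proteins PLIN2 and CIDEA, and the enzymes FASN and LPCAT3. They were chosen by name, with earlier results of these data known. Their counts and medians beside those of all genes are therefore descriptions, not tests. A probe set (a group of short probes that reads a transcript) was taken where the array annotation gave it exactly 1 symbol. Of the 10 genes 9 were measured, by 15 probe sets, out of 6765 genes measured in this way. CD36 had no such probe set and was not analysed here. For genes with more than 1 probe set, the one with the highest mean over the arrays stands for it, and the others are given beside it.

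Total RNA of aortic valve leaflets from female swine was hybridised to 10 Affymetrix porcine arrays. Of these, 4 came from adult Rapacz Familial Hypercholesterolemic (RFH) swine aged 2 years, 3 from juvenile RFH swine aged 3 months and 3 from juvenile wild-type (WT) swine aged 3 months. RFH is a breed with inherited high blood cholesterol. The WT animals are labelled as Rapacz Wisconsin Miniature Swine of genotype wild type (RFH -/-), so breed label and genotype differ together. All groups ate standard chow, and leaflets went into RNAlater within an hour of death. The comparisons are of adult RFH leaflets against juvenile RFH ones, and of juvenile RFH leaflets against those of WT swine of the same age. With these groups, age cannot be told apart from the duration of high cholesterol. The labels do not say whether each array had an animal of its own, so p-values measure the spread between arrays, which may be technical.

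Cells take up fatty acids that LPL, an enzyme anchored at the vessel wall, frees from circulating lipoproteins, and CD36 is one of the receptors that bring them in. Fatty acid binding proteins carry them through the cell, among other places to the nucleus, where PPARG binds fatty acid derivatives and switches on genes of uptake and storage. The surplus is stored as triglyceride and cholesteryl ester in droplets coated by perilipins such as PLIN2. In the arterial wall, macrophages filled with such droplets are known as foam cells, and FABP4 is best known from fat cells and macrophages.

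All values are log2 expression levels from the submitters' normalized table, where a difference of 1 is a doubling, and array medians lay between 6.96 and 7.03. Levels of different probe sets are not comparable with each other. A gene is said to have risen or fallen where limma's test gave a Benjamini-Hochberg adjusted p under 0.05 over all 23999 probe sets. In bulk tissue, fewer cells of a type and less RNA per cell cannot be told apart. The array of juvenile RFH replicate 2 stood apart in heart muscle transcripts. The mean over 15 muscle markers was 8.56 on that array, against 5.50 and 5.77 on the other juvenile RFH arrays, and MYH7, the slow myosin heavy chain, was at 10.59 there, against 5.32 and 5.82. The marker mean was 5.35 to 5.39 on juvenile WT arrays, below every juvenile RFH array, and 5.58 to 5.83 on adult RFH arrays. All 15 muscle markers had positive changes in juvenile RFH against WT leaflets, none of them called. Markers of interstitial cells, which make up most of a leaflet, had a mean over 12 genes of 11.82 to 12.36 in adult RFH leaflets. This mean was 12.55 to 12.61 in juvenile RFH and 12.62 to 12.69 in juvenile WT leaflets. In adult against juvenile RFH leaflets 4 of the 12 fell and none rose, where 7.85% of all genes fell and 11.4% rose. The poly-A RNAs added as labelling controls were also brighter on adult RFH arrays, at 7.12 ± 0.16 (SD, n = 4), against 6.32 ± 0.02 (SD, n = 3) on those of juvenile RFH leaflets. By a two-sided exact permutation test this gave p = 0.0286, which no split of 4 and 3 arrays can go below. The part of these controls in the results was not tested.

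Adult RFH leaflets held more FABP4, LPL and CIDEA transcript than juvenile RFH leaflets. These 3 of the 9 genes rose, none fell and 6 did not pass, where 11.4% of all 6765 genes rose and 7.85% fell. The median change of the 9 genes was 0.85 on the log2 scale, beside 0.02 over all genes. Adult arrays lay above all juvenile RFH arrays in 4 of the 9 genes, where this held for 16.6% of all genes. As the genes were chosen with earlier results of these data known, these values do not test whether they differ from other genes. The fatty acid binding proteins FABP3 and FABP5, PPARG, PLIN2, FASN and LPCAT3 did not pass by their brightest probe sets, though a second FABP5 probe set did. The level of each gene on every array is shown in the panels by gene.

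**Figure D1:**
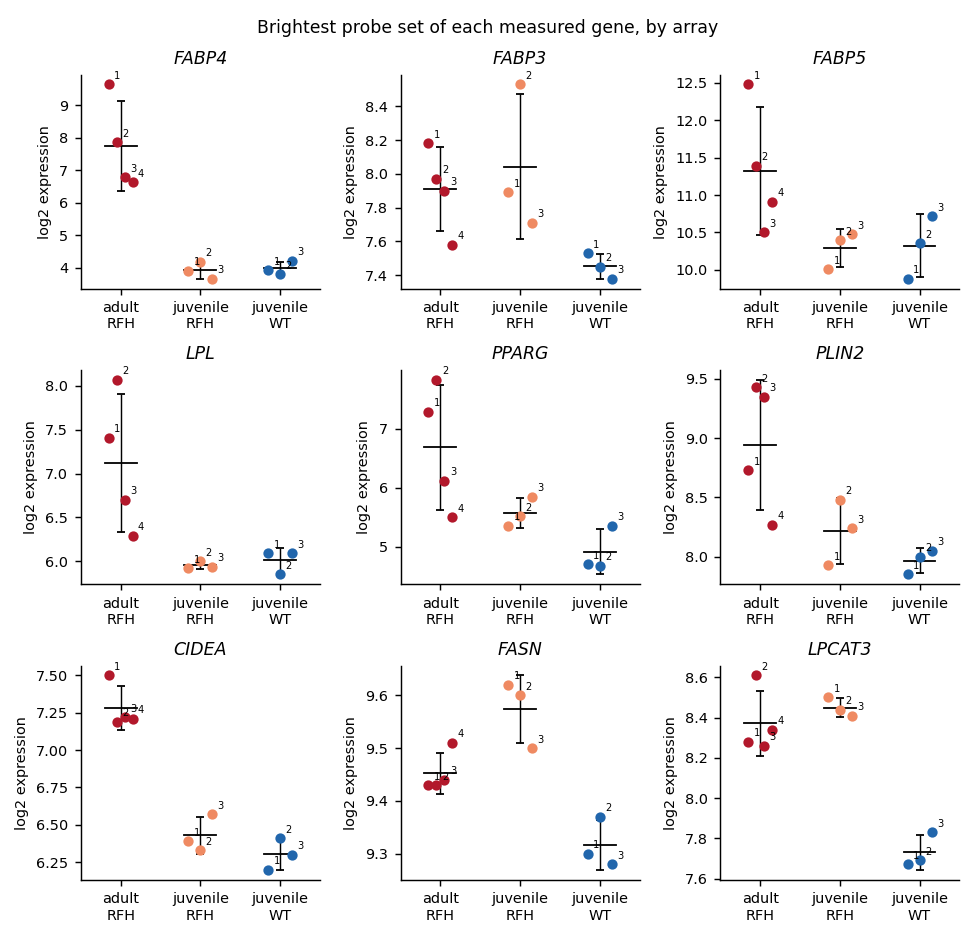
Log2 expression level (y axis, a scale of its own in each panel) of the brightest probe set of each measured gene on every array, by group (x axis). Numbered points are arrays with their replicate number, the bar is the group mean and the whisker 1 SD. FABP4 lies between 6.64 and 9.65 in adult RFH leaflets and between 3.66 and 4.21 on all juvenile arrays.

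Among the binding proteins, FABP4 had the largest change of the 9 genes. Adult RFH replicates 1 to 4 had FABP4 levels of 9.65, 7.87, 6.79 and 6.64, against 3.90, 4.18 and 3.66 in juvenile RFH replicates 1 to 3. The lowest adult array thus stood 2.45 above the highest juvenile RFH array, although adult arrays differed by up to 3.02 among themselves. FABP4 rose by 3.83 ± 0.58 (SE) on the log2 scale of the deposited values (95% interval 2.54 to 5.11, adjusted p = 0.00213). Without adult RFH replicate 1, the highest array, the log2 change was 3.19 (adjusted p = 0.00023). The call held whichever array was left out. The juvenile levels lay near the low end of the scale and are not shown here to be above background, so the size of the difference is not a measured ratio of transcript. With all values below 4 raised to 4 it was 3.68 (adjusted p = 0.0139).

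FABP5, the epidermal type of binding protein, also found in macrophages and endothelium, was read by a bright and a dimmer probe set. By the brightest, adult RFH replicates 1 to 4 had levels of 12.48, 11.39, 10.50 and 10.91, against 10.01, 10.40 and 10.48 in juvenile RFH replicates 1 to 3. The groups were parted by only 0.02, with adult replicate 3 next to the juvenile arrays. The change was 1.02 ± 0.39 (SE) on the log2 scale and did not pass (adjusted p = 0.0986). Single adult arrays moved it both ways, to 0.64 without adult RFH replicate 1 (adjusted p = 0.132) and to 1.30, past the threshold, without replicate 3 (adjusted p = 0.03). By the mean of both FABP5 probe sets the change was 1.13 and passed (adjusted p = 0.0366). By the second probe set the adult levels were 8.40, 8.05, 7.39 and 7.43, against 6.22, 6.77 and 6.77 in juvenile RFH, a gap of 0.62. This probe set rose by 1.23 ± 0.26 (SE, adjusted p = 0.011), where 8.03% of all probe sets rose, and the call was lost without juvenile RFH replicate 1 (adjusted p = 0.0535).

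FABP3, the heart and muscle type, did not pass. Its levels were 8.18, 7.97, 7.90 and 7.58 in the 4 adult RFH replicates in order, against 7.89, 8.53 and 7.71 in juvenile RFH replicates 1 to 3. The groups overlapped, and the highest of these arrays was juvenile RFH replicate 2, the one with high muscle markers. The change was -0.14 (95% interval -0.56 to 0.28, adjusted p = 0.668), and it was 0.10 without that array (adjusted p = 0.719). In the RefSeq gene table, FABP4 and FABP5 lie on chromosome 4 with 2 annotated genes between them, PMP2, another member of the binding protein family, and a long noncoding RNA, while FABP3 lies on chromosome 6.

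LPL rose by both of its probe sets, to different degrees. By the brightest, adult RFH replicates 1 to 4 had levels of 7.41, 8.07, 6.70 and 6.29, against 5.92, 6.0 and 5.94 in juvenile RFH replicates 1 to 3. All adult arrays were above the juvenile ones, by 0.29 at the closest, and adult replicate 4 was nearest. The change was 1.17 ± 0.33 (SE) on the log2 scale (adjusted p = 0.0354). By the second probe set the adult levels were 7.64, 8.82, 7.73 and 6.50, against 4.52, 5.26 and 3.98 in juvenile RFH, with a gap of 1.24. That probe set rose by 3.09 ± 0.47 (SE, adjusted p = 0.00208), and its call held whichever array was left out. Its juvenile RFH levels are not shown here to be above background, so the size of this difference is not a measured ratio of transcript. With all values below 4 raised to 4 it was 3.08 (adjusted p = 0.0125). The call of the brightest LPL probe set was less stable. The adjusted p came to 0.104, 0.0778 and 0.1 without juvenile RFH replicates 1, 2 and 3, 0.079 without adult RFH replicate 1, and 0.0543, 0.0543 and 0.0548 without juvenile WT replicates 1, 2 and 3.

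**Figure D2:**
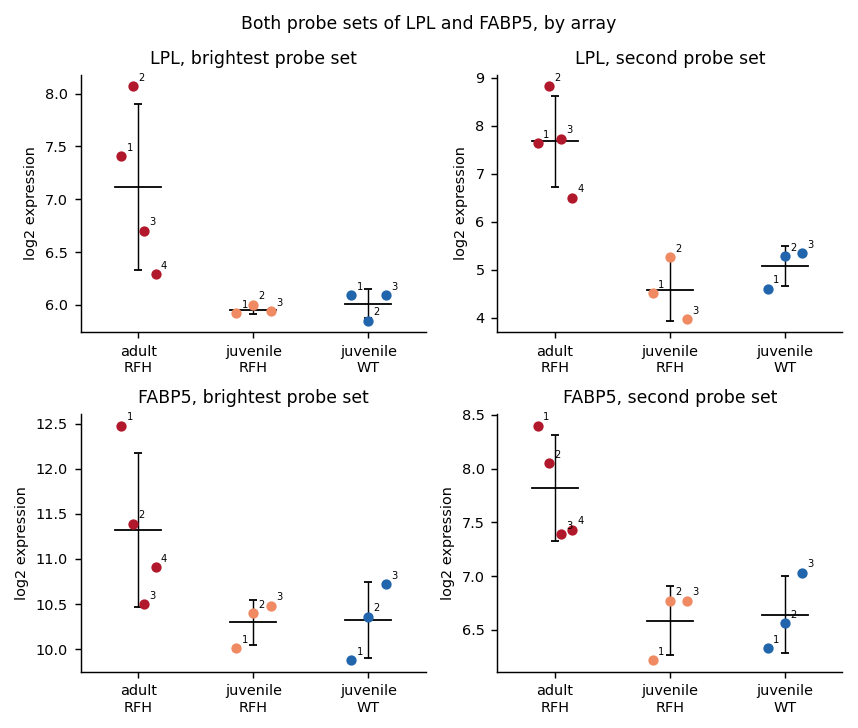
Log2 expression level (y axis, a scale of its own in each panel) of both probe sets of LPL and of FABP5 on every array, by group (x axis). Numbered points are arrays, the bar is the group mean and the whisker 1 SD. Adult RFH arrays lie above juvenile RFH arrays in all 4 panels, with the widest gap, 1.24, in the second LPL probe set and the narrowest, 0.02, in the brightest FABP5 probe set.

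PPARG is the receptor that switches on FABP4, LPL and PLIN2 in fat cells and macrophages. Its levels were 7.29, 7.83, 6.12 and 5.50 in the 4 adult RFH replicates in order, against 5.36, 5.52 and 5.85 in juvenile RFH replicates 1 to 3. Adult replicates 1 and 2 were well above the juvenile arrays, and adult replicate 4 lay among them. The change was 1.11 ± 0.46 (SE, 95% interval 0.08 to 2.13, adjusted p = 0.13), and did not pass. It was 0.73 without adult RFH replicate 2 (adjusted p = 0.251), 0.90 without replicate 1 (adjusted p = 0.252) and 1.50, past the threshold, without replicate 4 (adjusted p = 0.0224).

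Of the droplet proteins, CIDEA rose and PLIN2 did not pass. CIDEA, which makes droplets fuse and grow in brown fat, had levels of 7.50, 7.19, 7.22 and 7.21 in adult RFH replicates 1 to 4, against 6.39, 6.33 and 6.57 in juvenile RFH replicates 1 to 3. The adult arrays were close together and 0.62 or more above the juvenile ones. The change was 0.85 ± 0.11 (SE), a fold of 1.80 (95% interval 1.53 to 2.12, adjusted p = 0.000751), and the call held whichever array was left out, with changes of 0.77 to 0.92. PLIN2 had levels of 8.73, 9.43, 9.35 and 8.27 in adult RFH leaflets, against 7.93, 8.48 and 8.24 in juvenile RFH leaflets. Adult replicate 4 lay within the juvenile range and the others above it. The change was 0.73 ± 0.25 (SE, adjusted p = 0.0752), and did not pass. It was 0.56 without adult RFH replicate 2 (adjusted p = 0.154), 0.59 without replicate 3 (adjusted p = 0.131), 0.58 without juvenile RFH replicate 1 (adjusted p = 0.241) and 0.95, past the threshold, without adult RFH replicate 4 (adjusted p = 0.0101).

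The enzymes FASN and LPCAT3 did not pass in adult against juvenile RFH leaflets. FASN, which builds palmitate from acetyl and malonyl units, had levels of 9.43 to 9.51 in adult RFH and 9.50 to 9.62 in juvenile RFH leaflets, with a change of -0.12 (95% interval -0.29 to 0.05, adjusted p = 0.333). Its 3 dimmer probe sets had changes of 0.04, 0.19 and -0.07, with adjusted p of 0.824, 0.148 and 0.679. LPCAT3, which attaches polyunsaturated fatty acids to membrane phospholipids, had levels of 8.26 to 8.61 in adult RFH and 8.41 to 8.50 in juvenile RFH leaflets. Its change was -0.08 (95% interval -0.30 to 0.15, adjusted p = 0.661), an interval that holds 0.

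**Figure D3:**
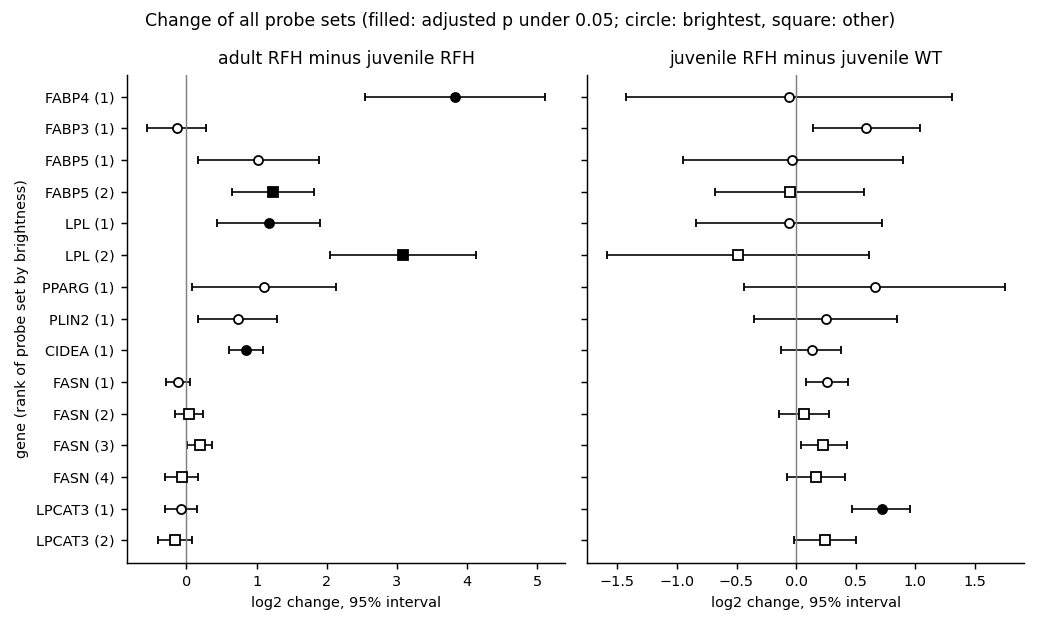
Log2 change (x axis) of all 15 probe sets (y axis, with the rank of the probe set by brightness in brackets) for adult over juvenile RFH leaflets (left) and for juvenile RFH over WT leaflets (right), with 95% intervals from limma. Filled marks have an adjusted p under 0.05. FABP4, both LPL probe sets, the second FABP5 probe set and CIDEA are filled on the left, and the brightest LPCAT3 probe set alone on the right.

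Juvenile RFH and juvenile WT leaflets differed in LPCAT3. It rose in juvenile RFH leaflets, the other 8 genes did not pass and none fell, where 0.0887% of all genes rose and 0.0443% fell. The median change of the 9 genes was 0.25, beside 0.07 over all genes. Juvenile RFH arrays lay above all WT arrays in 4 of the 9 genes (FABP3, PPARG, FASN and LPCAT3), where this held for 26.3% of all genes. LPCAT3 levels were 8.50, 8.44 and 8.41 in juvenile RFH replicates 1 to 3, against 7.67, 7.69 and 7.83 in juvenile WT replicates 1 to 3. Both groups were tight and stood 0.58 apart. The change was 0.72 ± 0.11 (SE) on the log2 scale, a fold of 1.64 (95% interval 1.39 to 1.94, adjusted p = 0.0485).

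The LPCAT3 call stood close to the threshold. Its change stayed between 0.69 and 0.77 whichever array was left out. The adjusted p came to 0.096, 0.143 and 0.164 without juvenile RFH replicates 1, 2 and 3, 0.243, 0.24 and 0.104 without juvenile WT replicates 1, 2 and 3, and 0.0658 without adult RFH replicate 4. The second LPCAT3 probe set, at 6.47, 6.35 and 6.27 in juvenile RFH and 6.08, 5.96 and 6.34 in juvenile WT leaflets, overlapped between the groups, with a change of 0.24 ± 0.12 (SE, adjusted p = 0.439). With the mean of both probe sets LPCAT3 did not pass (0.48, adjusted p = 0.109).

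The other genes were close to the WT level or did not pass. FABP3 had levels of 7.89, 8.53 and 7.71 in juvenile RFH, against 7.53, 7.45 and 7.38 in juvenile WT leaflets, without overlap. Its change was 0.59 ± 0.20 (SE, adjusted p = 0.269), and 0.35 without juvenile RFH replicate 2, the array with high muscle markers (adjusted p = 0.645). FASN had levels of 9.62, 9.60 and 9.50 in juvenile RFH, against 9.30, 9.37 and 9.28 in juvenile WT leaflets, and changed by 0.26 ± 0.08 (SE, adjusted p = 0.231). Its dimmer probe sets had changes of 0.07, 0.23 and 0.17, none of which passed.

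PPARG had levels of 5.36, 5.52 and 5.85 in juvenile RFH, against 4.71, 4.68 and 5.36 in juvenile WT leaflets, where the closest arrays of the groups gave the same rounded value. Its change of 0.66 ± 0.50 (SE) did not pass (adjusted p = 0.64). That SE takes in the spread of the adult arrays, as all groups share 1 estimate. The SD of PPARG was 1.06 in adult RFH, against 0.25 in juvenile RFH and 0.38 in juvenile WT leaflets. PPARG passed under none of the 20 alternatives, among them a fit of the juvenile groups alone. FABP4 levels were 3.90, 4.18 and 3.66 in juvenile RFH leaflets, against 3.92, 3.80 and 4.21 in juvenile WT leaflets, and the change was -0.06 (95% interval -1.43 to 1.31, adjusted p = 0.982). Both groups had low levels, so these values say little of a juvenile difference in FABP4. The interval also takes in the adult spread, an SD of 1.39, against 0.26 in juvenile RFH and 0.21 in juvenile WT leaflets.

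FABP5 and LPL levels of juvenile RFH and WT leaflets overlapped by both probe sets. FABP5 had changes of -0.03 and -0.05, and LPL changes of -0.06 and -0.49, with adjusted p between 0.749 and 0.988. PLIN2 was at 7.85, 8.0 and 8.05 and CIDEA at 6.20, 6.41 and 6.30 in juvenile WT leaflets, with changes of 0.25 (adjusted p = 0.772) and 0.13 (adjusted p = 0.713).

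Ordered by group mean, 5 genes were highest in adult RFH leaflets by their brightest probe sets and had juvenile means within 0.25 of each other: FABP4, FABP5, LPL, PLIN2 and CIDEA. PPARG was ordered adult RFH, juvenile RFH, juvenile WT, at 6.68 ± 1.06 (SD, n = 4), 5.58 ± 0.25 and 4.92 ± 0.38 (SD, n = 3 each), and neither step passed. In FABP3, FASN and LPCAT3 the juvenile RFH mean was the highest and the WT mean the lowest. For LPCAT3 these means were 8.37 ± 0.16 (SD, n = 4) in adult RFH leaflets, and 8.45 ± 0.04 and 7.73 ± 0.09 in those of juvenile RFH and juvenile WT swine (SD, n = 3 each), of which only juvenile RFH against WT passed. Both comparisons share the juvenile RFH arrays, so an array that is high there moves a gene in opposite directions in them.

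The spread among adult arrays was uneven. By their brightest probe sets, adult replicates 1 and 2 were the highest adult arrays in FABP4, FABP3, FABP5, LPL and PPARG. By the second LPL probe set the highest adult arrays were replicates 2 and 3, at 8.82 and 7.73, with replicate 1 at 7.64. In PLIN2 these were replicates 2 and 3, in CIDEA 1 and 3, in FASN 4 and 3, and in LPCAT3 2 and 4. The range over adult arrays was 3.02 in FABP4, 2.32 in PPARG, 1.98 in FABP5 and 1.78 in LPL, against 0.31 in CIDEA and 0.08 in FASN.

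Macrophage markers were also highest in adult replicates 1 and 2. The mean over the 15 measured of 22 listed markers was 10.93, 11.14, 10.45 and 10.35 in adult RFH replicates 1 to 4, against 9.76 to 9.80 in juvenile RFH and 9.40 to 9.51 in juvenile WT leaflets. This order was not particular to macrophages. Among adult arrays, endothelial and lymphocyte markers, given below, were also highest in replicates 1 and 2. So were fat cell markers, at 6.62, 6.63, 6.56 and 6.52 in adult RFH replicates 1 to 4. Interstitial cell markers were lowest in the same adult arrays, with means of 11.94, 11.82, 12.36 and 12.35 in adult RFH replicates 1 to 4. The excess of 3' over 5' signal of the control genes, larger in degraded RNA, was 1.75, 2.25, 2.84 and 2.12 on these arrays, lowest in replicate 1 and highest in replicate 3. Of the 15 macrophage markers 9 rose in adult RFH leaflets and none fell, where 11.4% of all genes rose and 7.85% fell. None passed between juvenile RFH and WT leaflets, where only 0.0887% of all genes rose and 0.0443% fell. TYROBP, the signalling adaptor of myeloid cells, was at 11.92, 11.88, 11.23 and 11.01 in adult RFH, against 10.01 to 10.38 in juvenile RFH leaflets. GPNMB and LGALS3, which are abundant in lipid-laden macrophages, rose by 2.56 and 2.28, while MRC1, the mannose receptor of resident macrophages, had a change of -0.21 (adjusted p = 0.255). The part of macrophages, of interstitial and other cells and of RNA quality in the spread among adult arrays was not tested.

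Of the 9 measured markers of fat cells, 1 rose in adult against juvenile RFH leaflets and none fell. For a list of this size this is near the shares of all genes, 11.4% up and 7.85% down. ADIPOQ, the fat cell hormone adiponectin, was at 4.11 to 4.36 in adult RFH leaflets, against 3.91 to 4.34 in juvenile RFH and 4.26 to 4.42 in juvenile WT leaflets, near the low end of the scale. The mean over the 9 measured of 13 listed fat cell markers was 6.52 to 6.63 in adult RFH leaflets, against 6.53 to 6.63 in juvenile RFH and 6.32 to 6.53 in juvenile WT leaflets. CFD alone of the 9 rose in adult RFH leaflets, by 0.79 (adjusted p = 0.0372), and it is also made by macrophages. LEP, LIPE and RETN had changes of -0.13, -0.24 and -0.01, with adjusted p of 0.317, 0.184 and 0.976.

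Endothelial markers averaged 8.75, 8.97, 8.13 and 8.62 in adult RFH replicates 1 to 4, against 8.06 to 8.29 in juvenile RFH and 7.75 to 8.0 in juvenile WT leaflets. Of 13 measured 3 rose and 1 fell in adult RFH leaflets. For a list of this size these counts are near the 11.4% and 7.85% of all genes that rose and fell. GPIHBP1, the capillary protein that holds LPL at the endothelial surface, was at 5.04 to 5.42 in adult RFH and 5.28 to 5.29 in juvenile RFH leaflets (change -0.02, adjusted p = 0.906). Lymphocyte markers, 8 measured, averaged 5.80, 6.68, 5.49 and 5.39 in adult RFH replicates 1 to 4, against 5.37 to 5.50 in juvenile RFH leaflets, with none called. Erythroid markers, 3 measured, averaged 6.28 to 7.24 in adult RFH and 7.56 to 8.48 in juvenile RFH leaflets. Of these 3 markers 2 fell, where 7.85% of all genes did. The part of these cells in the results was not tested.

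**Figure D4:**
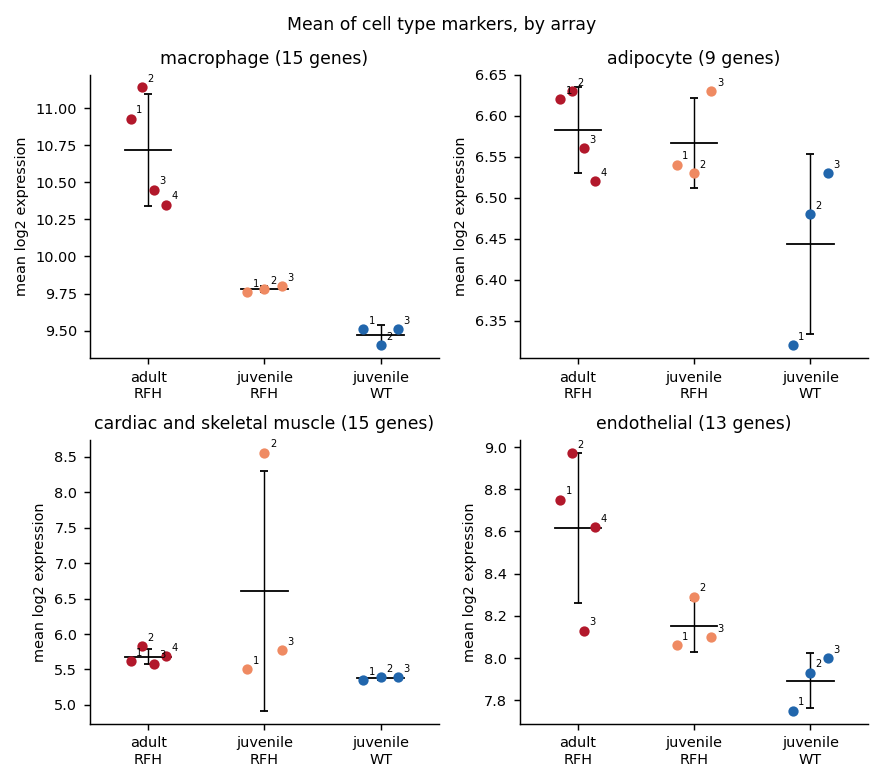
Mean log2 expression level (y axis, a scale of its own in each panel) over the measured markers of macrophages, fat cells, muscle and endothelium on every array, by group (x axis). Numbered points are arrays, the bar is the group mean and the whisker 1 SD. Adult RFH replicates 1 and 2 are highest in macrophage markers, at 10.93 and 11.14, and in endothelial markers, at 8.75 and 8.97. Juvenile RFH replicate 2 stands alone in muscle markers at 8.56.

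Of the other genes of fatty acid uptake and activation, 20 of 27 listed were measured, and 3 rose and 2 fell in adult RFH leaflets, with a median change of 0.00. For a list of this size these counts are near the 11.4% and 7.85% of all genes that rose and fell. ANGPTL4, a secreted inhibitor of LPL, rose by 3.50 ± 0.24 (SE, adjusted p = 1.86e-05) and was at 9.86 ± 0.46 (SD, n = 4) in adult leaflets, against 6.36 ± 0.12 (SD, n = 3) in juvenile RFH leaflets. LPL and its inhibitor were thus both higher in adult leaflets. ACSL5 and ACSL4, which couple fatty acids to coenzyme A, rose by 0.90 and 0.76. VLDLR, a lipoprotein receptor, fell by 0.74, and GOT2, a mitochondrial aminotransferase also described as a fatty acid binding protein of the plasma membrane, fell by 0.39.

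Droplet and lipolysis genes had the most calls of these 6 lists, which differ in size. Of 19 measured of 29 listed, 7 rose and none fell in adult RFH leaflets, with a median change of 0.30, where 11.4% of all genes rose. LIPA, the lysosomal acid lipase that frees cholesterol and fatty acids from engulfed lipoproteins, rose by 1.13 ± 0.21 (SE, adjusted p = 0.00608). MGLL, which splits the last fatty acid from glycerol, rose by 0.83 ± 0.14 (adjusted p = 0.00357), and the droplet coat protein PLIN3 by 0.58 ± 0.12 (adjusted p = 0.00942). These 3 calls and that of ANGPTL4 held whichever array was left out.

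Genes of fatty acid synthesis had 1 call among 12 measured of 20 listed, with a median change of -0.13. For lists of their size, the counts here and in the oxidation, PPARG partner and phospholipid lists are near the shares of all genes. These shares were 11.4% up and 7.85% down. ELOVL1, which lengthens long saturated chains, rose by 0.71 (adjusted p = 0.0293). Of 24 measured oxidation genes of 25 listed, 3 rose and 1 fell, with a median of 0.04. CPT1A, the gate for fatty acid entry into mitochondria, rose by 1.20 ± 0.19 (SE, adjusted p = 0.0027), the mitochondrial carrier UCP2 rose by 0.95, and ETFB, which passes electrons from oxidation to the respiratory chain, by 0.52. PDK4, a kinase that turns cells from glucose to fatty acid use, fell by 0.85 (adjusted p = 0.0407).

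Among 15 measured of 20 listed partners of PPARG and related regulators, 2 rose and 2 fell, with a median of 0.05. PPARGC1A, a coactivator of PPARG and of mitochondrial genes, fell by 2.57 ± 0.13 (SE, adjusted p = 2.11e-06), to 3.85 ± 0.18 (SD, n = 4) in adult RFH, against 6.42 ± 0.18 (SD, n = 3) in juvenile RFH leaflets. The adult level is not shown to be above background, and the change was -2.41 with all values below 4 raised to 4 (adjusted p = 5.48e-05). CEBPB and CEBPD, transcription factors that act before PPARG in fat cell formation and are also induced by inflammation, rose by 1.51 and 0.57, and KLF15 fell by 0.97. Of 14 measured phospholipid remodelling genes of 20 listed, 2 rose and none fell, with a median of 0.17. PLA2G7, a lipoprotein-associated phospholipase of macrophages, rose by 1.83 ± 0.56 (SE, adjusted p = 0.049), and MBOAT7, which attaches arachidonate to phosphatidylinositol, by 0.40.

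Of the 19 called genes of these lists named here, 8 kept their call in every fit that left out an array. These were ANGPTL4, PLIN3, MGLL, LIPA, CPT1A, UCP2, PPARGC1A and CEBPB. The call was lost without juvenile RFH replicate 1 for ACSL4, ACSL5, VLDLR, GOT2, ELOVL1, ETFB, CEBPD and PLA2G7, without juvenile RFH replicate 2 for ACSL4, ETFB, PDK4, CEBPD and PLA2G7, and without juvenile RFH replicate 3 for VLDLR, GOT2, ELOVL1, ETFB, PDK4, KLF15, MBOAT7 and PLA2G7. It was lost without adult RFH replicate 1 for ELOVL1, PDK4, CEBPD and PLA2G7, without adult RFH replicate 2 for PDK4, and without 1 or more juvenile WT arrays for ETFB, PDK4 and PLA2G7. The highest adjusted p among these was 0.144, for PDK4 without juvenile RFH replicate 3.

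Between juvenile RFH and WT leaflets no gene of these 6 lists passed. The smallest p of each list belonged to GOT2 (change 0.47, adjusted p = 0.105), AGPAT2 (0.34, adjusted p = 0.144), ACACA (0.28, adjusted p = 0.345), ECH1 (0.59, adjusted p = 0.182), NCOA2 (-0.42, adjusted p = 0.231) and CHPT1 (0.47, adjusted p = 0.155). GOT2 is the gene of fatty acid uptake named above, AGPAT2 makes the phosphatidic acid used for triglyceride, ACACA supplies malonyl units to FASN, ECH1 acts in oxidation, NCOA2 is a coactivator of nuclear receptors and CHPT1 makes phosphatidylcholine.

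**Figure D5:**
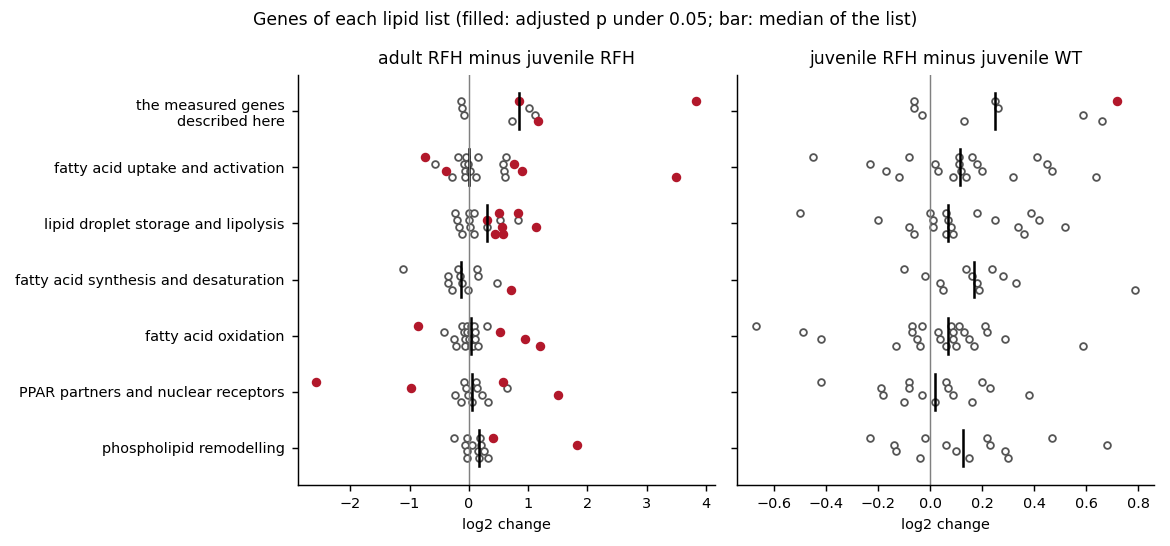
Log2 change (x axis, a range of its own in each panel) of each measured gene of the fatty acid genes described here and of 6 lists of related genes (y axis), for adult over juvenile RFH leaflets (left) and for juvenile RFH over WT leaflets (right). Points are genes, filled where the adjusted p was under 0.05, and the bar is the median of the list. On the left the droplet list has 7 filled points, all above 0, and on the right only LPCAT3 is filled.

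The genes whose pattern over the 10 arrays was most like that of a called gene were found by the root mean square difference of log2 levels after each gene's own mean was taken off. For FABP4 they were CXCL8, a neutrophil chemokine (0.579), SMPDL3A, a phosphodiesterase of macrophages (0.583), and PTGS2, the inducible cyclooxygenase (0.704), where FABP4 itself had an SD of 2.01 about its mean. For LPL they were STK26 (0.168), SLA-DOA (0.174) and CEBPG (0.186), and for CIDEA CRYAB (0.108), BTG1 (0.122) and NECTIN2 (0.131). For LPCAT3 they were IDH2 (0.111), OGFOD1 (0.119) and HM13 (0.121). IDH2, a mitochondrial isocitrate dehydrogenase, had means of 9.87 and 9.83 in adult and juvenile RFH leaflets, against 9.19 in juvenile WT leaflets. These are descriptions over arrays that share the group differences, with no test.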

How the data were processed

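The deposited table holds log2 expression values for 24123 probe sets on 10 arrays. Their log2 scale was inferred from their span of 2.01 to 14.96. R 2.15.2 is named per the submitters' processing notes. How the authors corrected background, normalized arrays and summarised probes is not given in the sources used here. Precision is limited by the number of arrays, 3 or 4 a group.

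The fit took no Affymetrix control probe sets, of which there are 124. Of the 23999 others, 10069 carry exactly 1 symbol in the array annotation, 198 several and 13732 none. The gene IDs of all 9 measured genes matched the same symbols in the RefSeq gene table (Sscrofa11.1).

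Group means were fitted to all 10 arrays by lmFit and eBayes of limma 3.58.1 under R 4.3.3 (7 residual and 3.57 prior degrees of freedom), two-sided, with Benjamini-Hochberg adjustment over all 23999 probe sets and a threshold of 0.05. Standard errors and 95% intervals are limma's moderated ones. The fit was tested on simulated data. The 12 poly-A control probe sets and the 3' to 5' differences of control genes were compared by exact permutation.

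The genes, the 6 lists of related genes, the 7 marker lists and the naming rule were chosen with earlier results of these data known. The rule named up to 3 called genes per direction, list and comparison by smallest p, or, in a list with no call, its gene of smallest p, and the 3 genes nearest in pattern to each called gene. Marker genes were named as examples after their values were seen. The alternatives are given in the closing section. Same-numbered arrays of different groups share only a number.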

Additional observations from a re-analysis of the deposited data

Results flagged for a closer look

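On 3 of 58 measures tested in the 4 adult RFH arrays, 1 array stood apart from the others by Dixon's criterion, which chance meets in about 1 group in 20. CIDEA was at 7.50 in adult RFH replicate 1, against 7.19 to 7.22 in the other adult arrays. FASN, by its brightest probe set, was at 9.51 in adult RFH replicate 4, against 9.43 to 9.44 in the others. PDK4 was at 10.4 in adult RFH replicate 2, against 11.07 to 11.20 in the others, and its change was -0.67 without that array (adjusted p = 0.0786).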

How the results depend on the processing

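FABP4, CIDEA and the second LPL probe set rose in adult against juvenile RFH leaflets under all 20, 20 and 19 alternatives run, with changes of 3.19 to 4.19, 0.77 to 0.92 and 2.70 to 3.48. The brightest LPL probe set kept its direction and lost its call in 9 of 20. In juvenile RFH against WT leaflets LPCAT3 kept its direction and lost its call in 13 of 21.

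In adult against juvenile RFH leaflets 3 of the 9 genes and 4025 probe sets were called. It was 0 of 5 genes when probe sets below the median level of 7 were left out, which removes FABP4, LPL, PPARG and CIDEA. It was 5 of 9 with the replicate number as a block, where PPARG (adjusted p = 0.0434) and PLIN2 (adjusted p = 0.00393) were added. Adult RFH replicate 4 has no partner and drops out of that fit, and the changes of both, 1.50 and 0.95, equal those without that array. It was also 5 of 9 with the 3' to 5' difference of control probe sets as a covariate, where FABP5 (1.0, adjusted p = 0.0284) and PLIN2 (0.74, adjusted p = 0.0449) were added. The count was 2 to 5 when single arrays were left out. The count of probe sets was 2308 when the fit held the RFH arrays alone, 905 with a change of at least 2-fold, and 2243 to 4965 when single arrays were left out, lowest without juvenile RFH replicate 1.

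In juvenile RFH against WT leaflets 1 of 9 genes and 28 probe sets were called. No gene was called (0) with cyclic loess, without dim probe sets, with the trend and robust prior, with the replicate block, with values below 4 raised to 4, with a change of at least 2-fold, or with the mean of each gene's probe sets, and it was 0 to 1 when single arrays were left out. The count of probe sets was 6 without dim ones, 872 with only these groups in the fit, 1171 with array weights, 17 with the replicate block, 10 with values below 4 raised to 4, 62 with the covariate, and 2 to 71 when single arrays were left out. The cause of these moves was not tested.

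Same-numbered arrays had correlations of their deviations from the group means of -0.156 to 0.157 (adult with juvenile RFH) and -0.069 to 0.185 (juvenile RFH with WT), so the numbers were not taken as pairs. Some changes near 0 turned sign, none of them called. In adult against juvenile RFH leaflets this was FASN by the mean of its probe sets (0.01). With the covariate, in juvenile RFH against WT leaflets, these were FABP4 (0.28), FABP5 (0.22, and 0.06 for its second probe set) and LPL (0.01). Leaving out single arrays gave -0.30 to 0.10 for FABP3 in adult against juvenile RFH leaflets. In juvenile RFH against WT leaflets it gave -0.20 to 0.06 for FABP4, -0.24 to 0.17 for FABP5 and -0.21 to 0.14 for its second probe set.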
